A study of Mus musculus with 9 samples.

Results

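The 10 genes listed here belong to MHC class I presentation and were followed in 4T1 primary tumors: the class I heavy chains H2-K1 and H2-D1, their light chain B2m, the peptide transporter subunits Tap1 and Tap2, the loading factor Tapbp, the class I transactivator Nlrc5, and the immunoproteasome subunits Psmb8, Psmb9 and Psmb10. They were taken by gene symbol, and all 10 of them had a row among the 18755 genes of the deposited count table and passed the filter on low counts, as 13966 genes did in all. The tumors had grown from 4T1 cells, a mouse mammary carcinoma line of BALB/c origin, in the mammary fat pad of female BALB/c mice that were 6 to 10 weeks old at injection. From day 15, 6 of the tumors (BI) were exposed for 5 days to the FAK inhibitor BI 853520 at 50 mg/kg, given to the mice by gavage, and 3 tumors (vehicle) came from mice given 0.5% Natrosol alone. The tumor grew in mice with an intact immune system, so that each library holds RNA of carcinoma cells and of host cells together, and each group holds a single cell line. FAK is a kinase of focal adhesions, and BI 853520 blocks its activity. Each tumor gave 1 library of mRNA, with total counts of 16931607 to 33850245 and TMM factors of 0.984 to 1.02. Tumors without sufficient RNA quality had been left out by the authors. The labels do not name the animal behind each library, so that p-values measure the spread between these 9 tumors. Epithelial markers were measured in every tumor, with a summed level of 757 to 1190 CPM (counts scaled to a common library size), although leukocyte, macrophage and fibroblast markers were also abundant.

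MHC class I molecules display peptides from proteins made inside a cell to CD8 T cells, and nearly every nucleated cell carries them. The peptides are cut by the proteasome, in which the interferon-inducible subunits Psmb8, Psmb9 and Psmb10 can replace Psmb5, Psmb6 and Psmb7, and are pumped into the endoplasmic reticulum by Tap1 and Tap2, where Tapbp helps to load them on a heavy chain paired with B2m. Nlrc5 joins RFX, CREB/ATF and NF-Y factors at the SXY module of class I promoters, and many genes of the pathway also respond to interferon through IRF factors.

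The promoters of B2m, H2-K1, H2-D1 and Tap1 are shown because these genes are known for such elements close to their starts. Each window runs from 250 bases before to 50 bases after the RefSeq start on GRCm38.p6, in the direction of transcription. It comes from the reference strain and not from BALB/c, whose H2 haplotype differs, so that the tumors' own H2-K1 and H2-D1 bases were not read. Capitals mark matches, on either strand, to CCAAT (NF-Y), TGACG (the CRE half-site), GAAANNGAAA (an ISRE-like element) and GGGGATTCCC (the kB site of the class I enhancer), and no match in these windows overlapped another. The windows lie at chr2:122147437-122147736 on the plus strand, chr17:34000298-34000597 on the minus strand, chr17:35262844-35263143 on the plus strand and chr17:34187306-34187605 on the plus strand.
B2m: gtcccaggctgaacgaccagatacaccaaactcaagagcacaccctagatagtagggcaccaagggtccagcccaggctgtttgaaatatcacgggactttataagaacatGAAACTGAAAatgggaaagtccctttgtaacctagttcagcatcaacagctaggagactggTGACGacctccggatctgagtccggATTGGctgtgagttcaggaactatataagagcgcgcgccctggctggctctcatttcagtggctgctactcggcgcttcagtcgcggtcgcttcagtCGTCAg
H2-K1: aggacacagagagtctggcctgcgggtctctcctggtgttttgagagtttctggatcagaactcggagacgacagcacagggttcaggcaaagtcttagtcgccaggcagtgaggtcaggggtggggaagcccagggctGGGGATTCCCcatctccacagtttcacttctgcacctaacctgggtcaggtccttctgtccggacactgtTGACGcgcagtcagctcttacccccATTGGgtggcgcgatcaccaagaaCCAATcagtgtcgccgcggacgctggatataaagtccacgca
H2-D1: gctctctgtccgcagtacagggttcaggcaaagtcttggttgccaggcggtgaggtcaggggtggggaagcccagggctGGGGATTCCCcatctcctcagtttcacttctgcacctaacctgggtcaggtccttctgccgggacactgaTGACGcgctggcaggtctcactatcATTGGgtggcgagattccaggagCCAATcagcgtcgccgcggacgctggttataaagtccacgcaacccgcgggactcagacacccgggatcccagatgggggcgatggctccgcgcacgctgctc
Tap1: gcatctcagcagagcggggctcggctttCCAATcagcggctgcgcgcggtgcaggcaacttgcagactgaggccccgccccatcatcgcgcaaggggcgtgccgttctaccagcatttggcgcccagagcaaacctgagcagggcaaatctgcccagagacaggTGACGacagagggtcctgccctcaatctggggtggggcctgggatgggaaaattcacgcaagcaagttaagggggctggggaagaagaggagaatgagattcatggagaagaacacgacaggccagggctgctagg

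Windows were given for 8 of the 10 genes, all but Tap2 and Nlrc5. CCAAT matched in 6 of these 8, against 37.4% of 32851 promoter windows of the same length, and TGACG matched in 5, against 20.8%. The kB sequence was found in H2-K1 and H2-D1, and in 0.107% of all windows. GAAANNGAAA matched in B2m alone of the 8 (3.44% of all windows), and the GAS-like TTCNNNGAA in Psmb8 alone (8.3% of all windows). These patterns count exact matches only. The windows of H2-K1 and H2-D1 hold cagtttcacttct after the kB sequence, which on the other strand comes close to GAAANNGAAA without matching it. The lack of a match therefore does not show that these promoters lack an interferon element. The windows of Psmb9 and Tap1 share 275 bases, since both genes start from the same stretch in opposite directions. Their CCAAT match is the same bases in both windows, as is their TGACG match, and each was counted for both genes above. A match is a description of the letters in a window and does not show that a factor was bound.

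The 10 genes spanned a wide range of abundance. Levels between genes were compared as CPM per kilobase of the deposited gene length. B2m had the highest level of all 13966 genes tested, at 4830 ± 251 (SD, n = 3) CPM per kilobase in vehicle tumors and 5040 ± 245 (SD, n = 6) in BI tumors. H2-D1 followed at 1060 ± 84.1 in vehicle and 1180 ± 108 in BI tumors, and H2-K1 at 690 ± 33.8 and 763 ± 54.6. These 3 genes, which make up the class I molecule itself, held ranks 1, 19 and 43. For the heavy chains, levels and ranks carry the limits of alignment given below. Psmb8 (266 ± 12.8 in vehicle tumors), Tapbp (173 ± 16.2), Psmb9 (144 ± 16.2) and Psmb10 (114 ± 12.1) came next on the same per-length scale. Tap1 (70.2 ± 7.16), Tap2 (60.9 ± 2.28) and Nlrc5 (21.6 ± 1.16, rank 4028) had the lowest levels of the 10. Over all 9 tumors the ranges of Tapbp and Psmb9, of Psmb9 and Psmb10, and of Tap1 and Tap2 overlapped, whereas those of the other neighbors in this order did not.

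**Figure D1:**
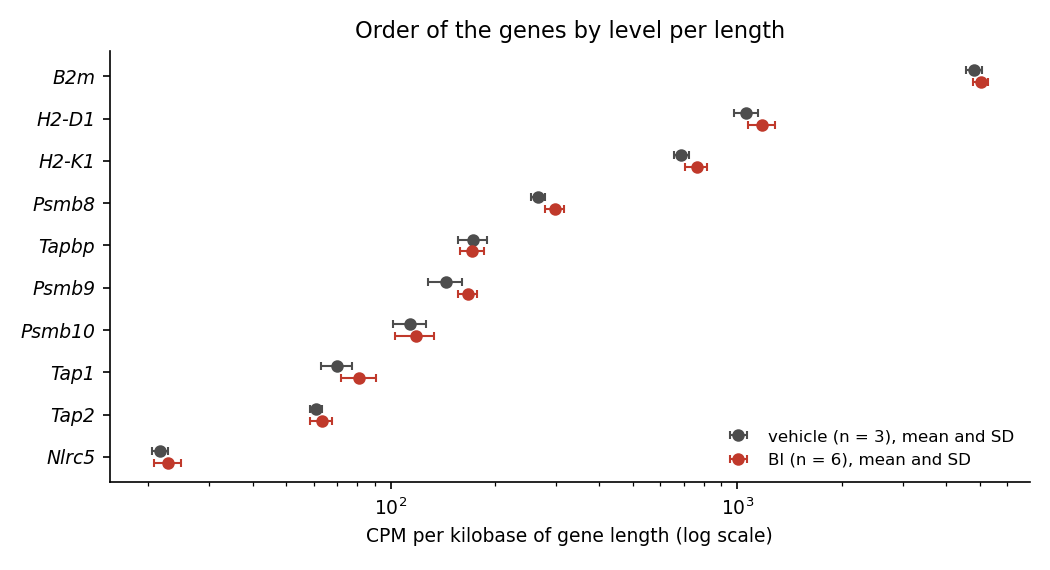
Mean level of each of the 10 genes in CPM per kilobase of gene length (log axis), with bars for the SD of the 3 vehicle and the 6 BI tumors. B2m lies highest at 4830 in vehicle tumors and Nlrc5 lowest at 21.6, and the vehicle and BI means of a gene lie close together.

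None of the 10 genes passed the test between BI and vehicle tumors. By the quasi-likelihood test of edgeR, with Benjamini-Hochberg adjustment over all 13966 genes, 0 of 10 were higher in BI tumors at an adjusted p no greater than 0.05, where 14.6% of all genes tested were, and 0 of 10 were lower, where 14.1% were. For Psmb9 and Psmb8 the unadjusted p was 0.0201 and 0.0319 (2 of 10 no greater than 0.05, against 40.7% of all genes tested), and DESeq2 called these 2 genes, whereas edgeR's likelihood ratio test and limma-voom called 0. At the cutoffs of the study, an unadjusted p of at most 0.05 and a change of at least 1.5-fold, 0 of 10 were higher (9.59% of all genes) and 0 of 10 were lower (3.57% of all genes). In none of the 10 did every BI tumor lie above every vehicle tumor, as in 14.1% of all genes, or below, as in 14% of them. The median log2 fold change of the 10 was 0.11, beside -0.004 over all genes tested, and 1 of the 10 had a value below 0. All 10 of the 95% intervals lay inside the 1.5-fold limits, as did 64% of those of all genes tested. In a bulk tumor a smaller number of cells of a type and less RNA per cell cannot be told apart, and neither can opposite changes in carcinoma and host cells that share these genes.

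**Figure D2:**
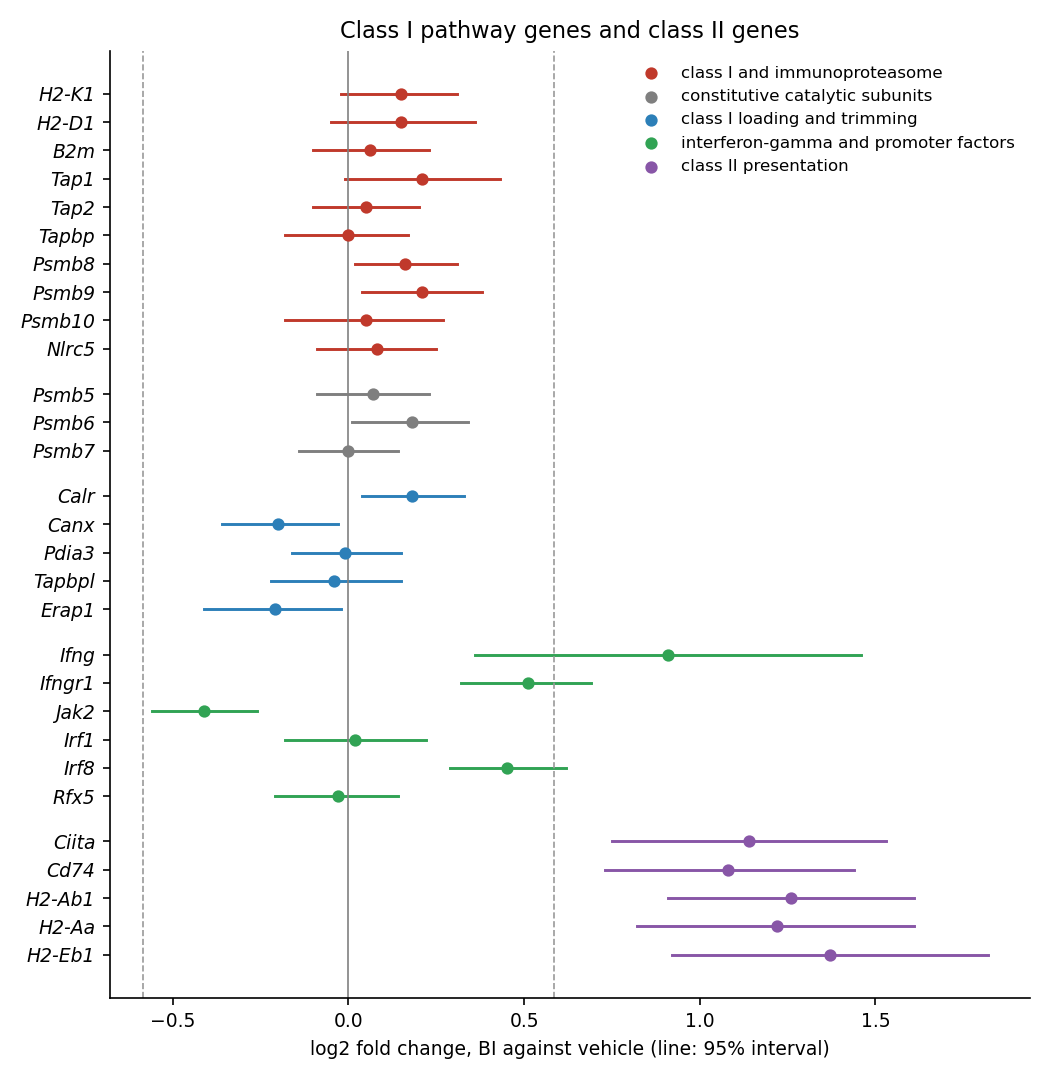
Log2 fold change of BI over vehicle (points) with its 95% interval from edgeR (lines) for the 10 genes and for genes of the standard proteasome, peptide loading, interferon gamma signaling, promoter binding and MHC class II, with dashed lines at the 1.5-fold limits. The 10 genes lie between 0.997-fold (Tapbp) and 1.16-fold of vehicle with every interval inside the limits. The intervals of the class II genes drawn, such as H2-Ab1 at a log2 fold change of 1.26 (2.4-fold), lie above the upper limit.

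Among the genes of the class I molecule, H2-K1 (Entrez 14972, mm9 chromosome 17, 34132962 to 34137278, minus strand) encodes a classical heavy chain. Its levels in the vehicle tumors were 1200, 1090 and 1120 CPM, and in the BI tumors they ran from 1100 over a median of 1270 to 1360 CPM. All BI tumors but replicate 1 lay above the 3 vehicle tumors. The log2 fold change was 0.15 (SE 0.0766, 95% interval -0.02 to 0.31, adjusted p = 0.175). H2-D1 (Entrez 14964, chromosome 17, 35399675 to 35404444, plus strand), the other classical heavy chain, had 1990, 1820 and 1700 CPM in vehicle tumors and 1720, 2100 and 2250 CPM as the lowest, median and highest BI values. The groups overlapped, with 4 of 6 BI tumors above all vehicle tumors, and its log2 fold change was 0.15 (SE 0.0926, 95% interval -0.05 to 0.36, adjusted p = 0.236). B2m (Entrez 12010, chromosome 2, 121973422 to 121978819, plus strand), the light chain that all class I molecules share, had 3910, 4180 and 4330 CPM in vehicle tumors and 4000, 4370 and 4600 CPM as the lowest, median and highest BI values. Again 4 of 6 BI tumors exceeded the vehicle tumors, and the log2 fold change of 0.06 had an interval of -0.1 to 0.23 (SE 0.0767, adjusted p = 0.568). BI replicate 1 was the lowest BI tumor for all 3 genes.

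Class I heavy chains are near-identical in sequence. The authors kept reads with a single alignment, so reads that matched several heavy chains were dropped and are missing from every level given here. In addition, BALB/c carries another H2 haplotype than the reference strain. Reads of its heavy chains, H2-K1 and H2-D1 included, may therefore be lost or counted under another heavy chain. The counts of 21 class I heavy chain genes of the H2 region, of which 18 passed the filter on low counts on their own and 3 did not, were also summed and tested as 1 feature, which does not recover such reads. The sum was 4960, 4560 and 4580 CPM in the vehicle tumors and 4550 to 5530 CPM in the BI tumors, of which H2-K1 and H2-D1 gave 63.9%. The vehicle mean of 4700 ± 228 CPM (SD, n = 3) and the BI mean of 5140 ± 352 CPM (SD, n = 6) differed by 0.13 on the log2 scale (95% interval -0.06 to 0.31, adjusted p = 0.278). H2-Q6 and H2-Q8 held identical counts in all 9 tumors, and H2-Q7 and H2-Q9 differed by no more than 2%. The sum, and the share of 63.9%, may therefore count the same reads under more than 1 gene. Without H2-Q8 and H2-Q9, an alternative chosen after seeing the data, the difference was 0.13 (adjusted p = 0.272).

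**Figure D3:**
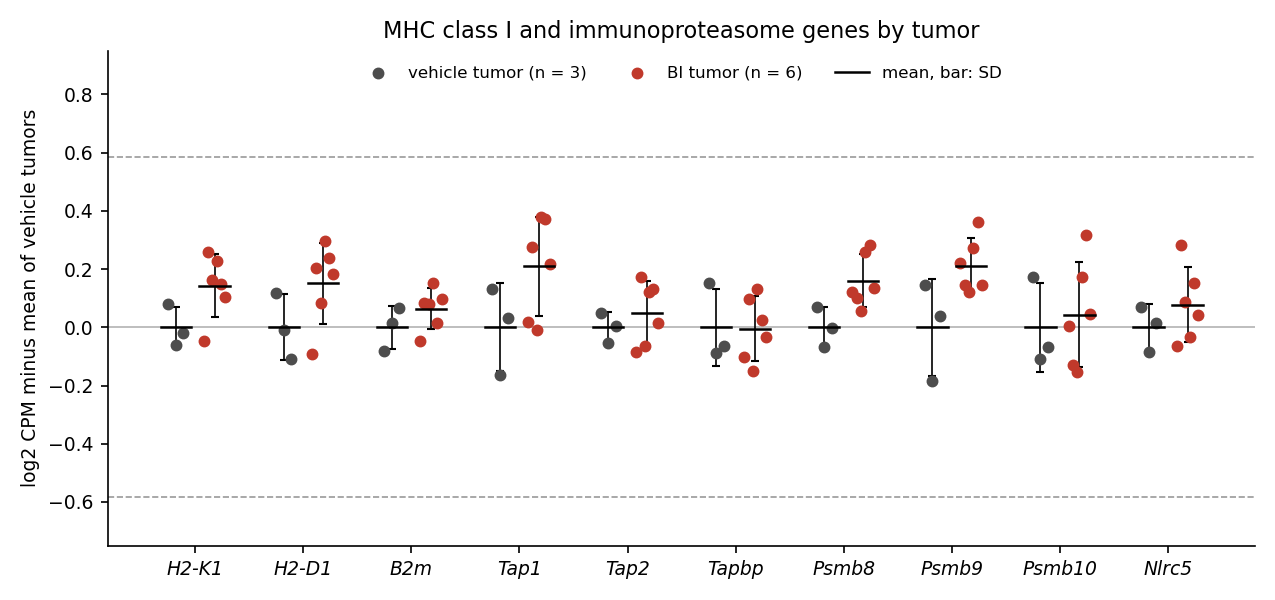
Log2 CPM of each of the 10 genes in every tumor, as the difference from the mean of the vehicle tumors, with 1 point for each tumor, lines for the mean and SD of the 3 vehicle and 6 BI tumors, and dashed lines at the 1.5-fold limits. The groups overlap for each gene, and no tumor reaches a dashed line.

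The transporter and loading genes gave the smallest and some of the largest shifts of the 10. Tap1 (Entrez 21354, chromosome 17, 34324498 to 34334170, plus strand), an ATP-driven subunit of the peptide transporter, had 226, 184 and 211 CPM in vehicle tumors and 205, 245 and 268 CPM as the lowest, median and highest BI values. The vehicle and BI ranges overlapped, with 4 of 6 BI tumors above the vehicle tumors, and the log2 fold change was 0.21 (SE 0.1, 95% interval -0.01 to 0.43, adjusted p = 0.132). Tap2 (Entrez 21355, chromosome 17, 34340472 to 34353266, plus strand), its partner, had 157, 146 and 152 CPM in vehicle tumors against 143, 159 and 171 CPM in BI tumors. Of the BI tumors, 3 lay above and 2 below all vehicle tumors, and the log2 fold change was 0.05 (95% interval -0.1 to 0.2, adjusted p = 0.601). Tapbp (Entrez 21356, chromosome 17, 34052844 to 34066235, plus strand), which bridges the transporter and the empty heavy chain, had 527, 446 and 454 CPM in vehicle tumors and 427, 473 and 520 CPM as the lowest, median and highest BI values. No BI tumor exceeded vehicle replicate 1, 2 lay below all vehicle tumors, and BI was 0.997-fold vehicle (95% interval 0.882 to 1.13, adjusted p = 0.97). Nlrc5 (Entrez 434341, chromosome 8, 96996663 to 97051172, plus strand), the transactivator, had 157, 141 and 151 CPM in vehicle tumors and 143, 156 and 182 CPM in BI tumors. With 3 of 6 BI tumors above the vehicle tumors its log2 fold change was 0.08 (95% interval -0.09 to 0.25, adjusted p = 0.474). Exons of Tap1 and Psmb9 overlap on opposite strands, Tap2 and Psmb8 overlap the antisense model Gm20496, Tap2 also overlaps Gm15821, and Tapbp overlaps Zbtb22 on its own strand. Use of the strand in counting was not stated, so reads there may belong to either gene.

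The immunoproteasome subunits replace the catalytic subunits of the standard proteasome and favor cuts that suit class I binding. Psmb8 (LMP7; Entrez 16913, chromosome 17, 34334666 to 34338399, plus strand) had 341, 310 and 324 CPM in vehicle tumors and 338, 355 and 395 CPM as the lowest, median and highest BI values. All BI tumors but replicate 3 lay above the vehicle tumors, and the log2 fold change was 0.16 (SE 0.0665, 95% interval 0.02 to 0.31, adjusted p = 0.0886). Psmb9 (LMP2; Entrez 16912, chromosome 17, 34318932 to 34324697, minus strand) had 128, 102 and 119 CPM in vehicle tumors and 126, 131 and 149 CPM in BI tumors. Its groups met at vehicle replicate 1, with 4 of 6 BI tumors above it, and the log2 fold change was 0.21 (SE 0.0779, 95% interval 0.04 to 0.38, adjusted p = 0.0632). Without vehicle replicate 1 it was 0.28 and passed the test (adjusted p = 0.0397), and without vehicle replicate 2 it was 0.12 (adjusted p = 0.276). Psmb10 (MECL-1; Entrez 19171, chromosome 8, 108459628 to 108462292, minus strand) had 163, 134 and 138 CPM in vehicle tumors and 130, 147 and 180 CPM in BI tumors. Of the BI tumors 2 lay above and 2 below all vehicle tumors, with a log2 fold change of 0.05 (95% interval -0.18 to 0.27, adjusted p = 0.778). BI replicate 5 was the highest and BI replicate 3 the lowest BI tumor for all 3 subunits.

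Whether the 2 forms of the proteasome shifted against each other was asked within each tumor, from the ratio of each inducible subunit to the subunit it replaces. Psmb5 (0.07, adjusted p = 0.498), Psmb6 (0.18, adjusted p = 0.106) and Psmb7 (0, adjusted p = 0.996) did not pass the test either. The CPM of Psmb8 was 7.94 times that of Psmb5 in vehicle tumors and 8.46 times in BI tumors. On the log2 scale this ratio was 2.99 ± 0.129 (SD, n = 3) and 3.08 ± 0.0827 (SD, n = 6), and the difference of 0.09 gave p = 0.262 in a two-sided exact permutation test (adjusted p = 0.786 over 3 ratios). The smallest p this test can give with 3 against 6 tumors is 0.0238. The log2 ratio of Psmb9 to Psmb6 was 0.4 ± 0.194 in vehicle and 0.43 ± 0.0737 in BI tumors (exact permutation p = 0.714, adjusted p = 0.81). That of Psmb10 to Psmb7 was -0.09 ± 0.129 and -0.05 ± 0.197 (exact permutation p = 0.81, adjusted p = 0.81). These ratios of CPM are not corrected for gene length. Per kilobase, the vehicle means were 266, 144 and 114 CPM for Psmb8, Psmb9 and Psmb10. Those of Psmb5, Psmb6 and Psmb7 were 46.9, 85 and 159 CPM. For the remaining parts of the proteasome, the shares over all genes tested were 14.6% higher and 14.1% lower in BI tumors. Beside these, 0 of 11 other subunits of the 20S core passed the test (median log2 fold change 0.03, and Psmb2 at 0.15 with an adjusted p of 0.0975). Of 9 activators and assembly factors 0 were higher and 1 was lower (Psmg1, an assembly chaperone, -0.29, adjusted p = 0.0395). Of 21 subunits of the 19S regulator 0 were higher and 1 was lower (Psmc6, an ATPase, -0.22, adjusted p = 0.00804). The call of Psmg1 was lost when any of 7 of the 9 tumors was left out. The interferon-inducible activator subunits Psme1 (0.04, adjusted p = 0.697) and Psme2 (0.07, adjusted p = 0.519) did not pass the test.

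Among the 6 BI tumors, 38 of the 45 pairs of the 10 genes (84.4%) had a positive Pearson correlation of log2 CPM, as did 50% of all pairs of the genes tested (median r of the 45 pairs 0.565, range -0.237 to 0.965). With n = 6, no pair passed a Benjamini-Hochberg adjusted exact permutation p of 0.05 over the 45 pairs (smallest 0.0625), and for 8 pairs the unadjusted p was no greater than 0.05. Psmb8 and Psmb10, which lie on different chromosomes, gave the highest value, r = 0.965 (exact permutation p = 0.00139, adjusted p = 0.0625) and Spearman's rho = 1 (exact permutation p = 0.00278). Leaving out the 2 tumors farthest from the median of Psmb8 gave r = 0.916. Psmb8 and Psmb9 had r = 0.923 (exact permutation p = 0.00694, adjusted p = 0.104) and rho = 0.943 (exact permutation p = 0.0167), but r was 0.525 without the 2 farthest tumors. H2-D1 and Tap1 had r = 0.884 (exact permutation p = 0.00972, adjusted p = 0.109), rho = 0.943 (exact permutation p = 0.0167) and r = 0.875 without the 2 farthest tumors. Higher than this pair were also Psmb9 and Psmb10 (r = 0.932), Tap2 and Tapbp (0.922), Tap1 and Tap2 (0.919) and Tap1 and Tapbp (0.902). Without the 2 farthest tumors their values were 0.57, 0.774, 0.598 and 0.589. In every pair the tumors left are too few, and their range too narrow, to tell whether a relation rested on the 2 left out. Depth, purity and the share of host cells are common to all genes of a library, and their part in these correlations was not tested. The mean deviation of the 10 genes from their group means was largest below 0 in BI replicate 1 (-0.12 on the log2 scale) and BI replicate 3 (-0.09), and highest in vehicle replicate 1, BI replicate 4 and BI replicate 5 (0.09 each). Of 12176 other genes, the profiles most like this mean over the 9 tumors, after centering within groups, were those of Pml (r = 0.965), Rapgef1 (0.957), Ttyh3 (0.952), Cd79a (0.948) and Gbp2b (0.942). They were picked as the highest of 12176 correlations over 9 tumors, and how high unrelated genes would reach was not tested. None of these 5 passed the test between the groups, with log2 fold changes of 0.01, -0.05, 0.04, -0.33 and 0.02.

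Of 15 factors known to act at class I promoters, 3 rose and 3 fell in BI tumors, shares near those of all genes tested (14.6% and 14.1%), with a median log2 fold change of -0.02. Irf8, an interferon regulatory factor of myeloid and B cells, rose from 96.6 ± 12.7 CPM (SD, n = 3) to 132 ± 5.89 CPM (SD, n = 6; 0.45 on the log2 scale, adjusted p = 0.00124). Of the NF-Y subunits, which bind CCAAT, Nfya was at 0.22 (adjusted p = 0.00827), Nfyb at -0.29 (adjusted p = 0.00912) and Nfyc at 0.04 (adjusted p = 0.817). Irf1, the main interferon-induced activator of class I genes, was at 312 ± 29.6 CPM in vehicle and 317 ± 31.9 CPM in BI tumors (0.02, 95% interval -0.18 to 0.22, adjusted p = 0.894), and the SXY-binding factor Rfx5 was at -0.03 (adjusted p = 0.778). Without vehicle replicate 1 or 2, 1 of the 15 fell, and it was Nfyb. Of 11 genes of interferon gamma signaling 2 rose and 1 fell, again near the 14.6% and 14.1% of all genes. Ifng itself rose from 2.63 ± 0.354 to 4.98 ± 1.42 CPM (0.91, SE 0.251, adjusted p = 0.0183) and was above all vehicle tumors in 5 of 6 BI tumors. The receptor chain Ifngr1 rose by 0.51 (adjusted p = 0.0012), whereas the kinase Jak2 fell from 485 ± 16.5 to 365 ± 25.9 CPM (-0.41, adjusted p = 0.00102). Without vehicle replicate 1 or 2 the call of Ifng was lost, and 1 of the 11 rose.

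The non-classical class I genes encode heavy chains that present lipids, metabolites or a narrow set of peptides or that carry antibodies. Of 20 tested, 4 rose and 0 fell (median log2 fold change 0.16), beside 14.6% and 14.1% of all genes. The Fc receptor Fcgrt rose from 136 ± 21.3 to 203 ± 34.9 CPM (0.58, adjusted p = 0.00829), and H2-Q10 from 157 ± 9.61 to 187 ± 14.5 CPM (0.25, adjusted p = 0.0228). H2-T3 (0.68, adjusted p = 0.0304) and Mr1, which presents vitamin B metabolites to MAIT cells (0.39, adjusted p = 0.0309), rose from low levels of 1.84 ± 0.322 and 8.51 ± 1.27 CPM. H2-M3 (0.18, adjusted p = 0.0593), H2-T23 (0.11, adjusted p = 0.225), H2-Q7 (0.1, adjusted p = 0.386) and the lipid-presenting Cd1d1 (0.13, adjusted p = 0.44) did not pass. The number that rose was 1 without vehicle replicate 1, and 2 without vehicle replicate 2 or BI replicate 4, and the call of Fcgrt was lost without vehicle replicate 3. H2-Q10 and H2-T3 belong to families of near-identical copies, and their counts are uncertain for that reason. Of 17 genes of peptide loading and trimming 0 rose and 1 fell, the endoplasmic reticulum chaperone Hspa5 (1700 ± 123 to 1330 ± 112 CPM, -0.35, adjusted p = 0.00951), whose call was lost without vehicle replicate 2. The chaperones Calr (0.18, adjusted p = 0.0521), Canx (-0.2, adjusted p = 0.0741) and Pdia3 (-0.01, adjusted p = 0.961), the trimming peptidase Erap1 (-0.21, adjusted p = 0.0905) and the editor Tapbpl (-0.04, adjusted p = 0.786) did not pass.

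Genes of MHC class II and of the cells that read class I were higher in the same tumors. Of 9 class II genes 8 rose (median log2 fold change 1.08), beside 14.6% of all genes tested, and the remaining one, H2-Oa, was at 0.2 (adjusted p = 0.671). H2-Ab1, a class II beta chain, rose from 289 ± 42 to 692 ± 134 CPM (1.26, adjusted p = 0.00022), and the class II transactivator Ciita, a relative of Nlrc5, from 21.3 ± 4.85 to 47.2 ± 8.84 CPM (1.14, adjusted p = 0.000749). Of 10 genes tested of class I receptors and related receptors, 7 rose and 0 fell (median log2 fold change 1.09), beside 14.6% and 14.1% of all genes. This list shares its CD8 genes with the T cell markers below. The co-receptor Cd8a was at 17.2, 15 and 20.3 CPM in the vehicle tumors and at 28.2, 41.6, 50.5, 41.8, 35.3 and 50.4 CPM in the BI tumors, with no overlap (1.23, adjusted p = 0.000439). The inhibitory receptors Pirb (1.04, adjusted p = 3.42e-05) and Klra2 (0.84, adjusted p = 0.000362) rose as well.

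**Figure D4:**
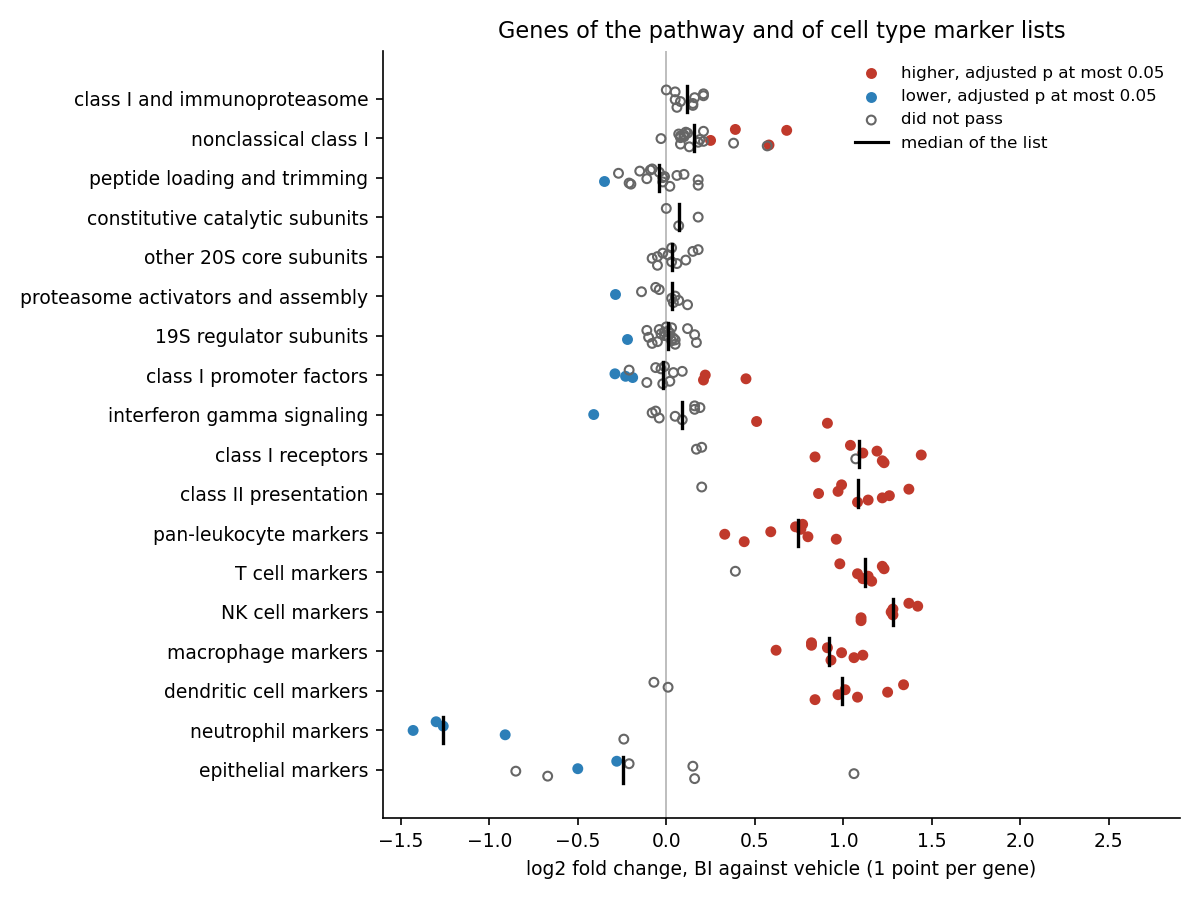
Log2 fold change of BI over vehicle of the genes tested in the lists described in the text (B cell, endothelial, fibroblast and adipocyte markers and polycomb genes are not drawn), with 1 point for each gene, filled where it passed the test, and a line at the median of each list. The 10 class I and immunoproteasome genes lie between 0.997-fold (Tapbp) and 1.16-fold of vehicle, or 0 and 0.21 on the log2 scale. The median log2 fold changes of the class II genes (1.08) and class I receptors (1.09) lie near 1.

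As a description within each tumor, the ratios of Ciita to Nlrc5 and of Cd74, the class II invariant chain, to B2m were formed. Both were chosen after the rise of Ciita and Cd74 and the small shifts of Nlrc5 and B2m had been seen, so they restate those values and were not tested. The log2 ratio of Ciita to Nlrc5 was -2.72, -3.16 and -2.63 in the vehicle tumors and -2.08, -1.7, -1.89, -1.47, -1.59 and -1.84 in the BI tumors. The groups did not overlap, and the means of -2.84 ± 0.283 (SD, n = 3) and -1.76 ± 0.22 (SD, n = 6) differed by 1.07. The log2 ratio of Cd74 to B2m was -1.92, -2.41 and -2.2 in the vehicle tumors and -1.47, -0.93, -1.18, -0.9, -1.11 and -1.44 in the BI tumors. The means of -2.18 ± 0.244 and -1.17 ± 0.244 differed by 1.01, without overlap. On the linear scale the CPM of Ciita was 0.14 of that of Nlrc5 in vehicle and 0.295 in BI tumors, and that of Cd74 was 0.221 and 0.444 of that of B2m. Gene length was not corrected for in these ratios either.

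**Figure D5:**
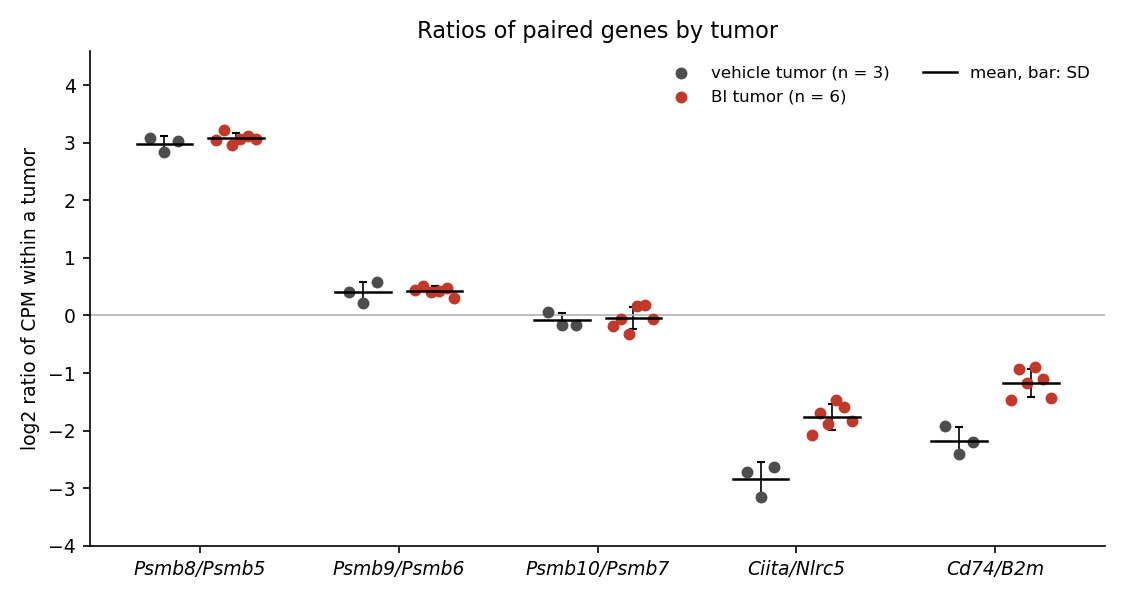
Log2 ratio of the CPM of each gene pair in every tumor, with lines for the mean and SD of the 3 vehicle and 6 BI tumors. The 3 ratios of inducible to standard proteasome subunits overlap between the groups, and the ratios of Ciita to Nlrc5 (means of -2.84 and -1.76) and of Cd74 to B2m (-2.18 and -1.17) do not.

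Markers of several cell types moved between the groups, and their part in the class I values was not tested. Of all genes tested, 14.6% rose and 14.1% fell. All 8 pan-leukocyte markers rose, with a summed level of 1060 to 1170 CPM in vehicle and 1560 to 1910 CPM in BI tumors, and Ptprc (CD45) rose from 174 ± 7.98 to 289 ± 33.7 CPM (0.73, adjusted p = 0.000225). All 8 macrophage markers (1690 to 2220 against 3340 to 4040 CPM), all 7 NK cell markers (33.3 to 46.9 against 91.6 to 116 CPM), 7 of 8 T cell markers (73.8 to 82.5 against 136 to 197 CPM) and 6 of 8 dendritic cell markers (74.4 to 89.9 against 116 to 178 CPM) rose. Of 4 B cell markers 2 passed (4.43 to 7.98 against 5.8 to 10.8 CPM), and 0 did without vehicle replicate 2, vehicle replicate 3 or BI replicate 4. Of the neutrophil markers 4 of 5 fell (515 to 739 against 208 to 361 CPM). Of 8 epithelial markers 2 fell, Krt18 (-0.5, adjusted p = 0.00636) and Krt8 (-0.28, adjusted p = 0.0444), and the call of Krt8 was lost when any of 6 of the 9 tumors was left out. Epcam (1.06, adjusted p = 0.0987), Cdh1 (0.16, adjusted p = 0.686) and Krt19 (0.15, adjusted p = 0.783) had values above 0 and did not pass. Cldn4 (-0.67, adjusted p = 0.0939), Krt14 (-0.85, adjusted p = 0.329) and Krt5 (-0.21, adjusted p = 0.851) had values below 0 and did not pass either. Krt14 and Krt5 were at low levels, with vehicle means of 0.924 and 0.672 CPM. The epithelial sum, most of it Krt8 and Krt18, had a level of 965 to 1190 CPM in vehicle and 757 to 965 CPM in BI tumors. Counts of other markers that passed as higher depended on single tumors: endothelial 3 of 6 (0 without vehicle replicate 3, 1 without vehicle replicate 1, 5 without BI replicate 5), fibroblast 1 of 7 (0 to 3 when each tumor was left out) and adipocyte 1 of 5 (0 to 2), the last with a summed level of 5.19 to 10.4 CPM in vehicle and 5.62 to 49.9 CPM in BI tumors. Beside these, the summed level of the 10 class I and immunoproteasome genes was 8560 to 8790 CPM in vehicle and 8390 to 9970 CPM in BI tumors.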

How the data were processed

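The 9 libraries of tumor mRNA came from a stranded, paired-end protocol. Reads were aligned by the authors to mm9 with STAR, keeping single alignments only, and QuasR was used to count those starting in exons of RefSeq genes, and they deposited raw counts for 18755 genes and gene lengths, without normalization. Which edgeR test and which low-count filter the study used, and whether strand was used in counting, are not given in the sources used here. Symbols came from the RefSeq table (18700 of 18755 genes), promoter windows from RefSeq on GRCm38.p6, and mm9 positions from GENCODE vM1 by symbol.

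BI was compared with vehicle in edgeR 4.0.16 (R 4.3.3) with TMM, filterByExpr (minimum count 10, minimum total 15), the quasi-likelihood test without covariates and Benjamini-Hochberg adjustment over 13966 genes. Fold changes are BI over vehicle, and adjusted p-values of genes are from this test. CPM are TMM-normalized, log2 CPM used a prior count of 2, and intervals cover the spread between tumors. Ratios and correlations were tested by exact two-sided permutation (84 divisions of the tumors for ratios, doubling the smaller tail). The test was checked on counts simulated from its own model of these data, which cannot show whether that model suits these tumors. Alternatives were RLE, library size, other filters, the likelihood ratio test, DESeq2 1.42.0, limma-voom 3.58.1, a prior count of 0 and leaving out each tumor.

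The 10 genes and all lists were chosen with earlier results of these data known. Of 230 list entries, 6 had no row. Named genes were the 10, the 3 of smallest p in a list where named, the 5 of most similar profile and others named whatever their values. H2-Oa, Mr1, Nfkb1, Nfkb2, Rela, Relb, Nfyc, Epcam, Cdh1, Krt19, Krt14, Krt5 and Cd74 were named after their values were seen. The gene models Gm15821, Gm20496 and Zbtb22 were named for their overlaps. A single gene that falls under this rule is not reported here.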

Additional observations from a re-analysis of the deposited data

Results flagged for a closer look

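Of 95 quantities checked with Dixon's ratio in the 6 BI tumors, 4 held a tumor far from the others, and none of these concerned the 10 class I and immunoproteasome genes. Chance alone sets apart about 5% of such groups. Calr was at 736 CPM in BI replicate 1, the lowest of the BI tumors. Cidec, an adipocyte marker, was at 22.6 CPM in BI replicate 6, the highest. Xcr1, a dendritic cell marker, was at 11.2 CPM in BI replicate 2, the highest. Psmb2, a subunit of the 20S core, was at 118 CPM in BI replicate 2, the lowest.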

How the results depend on the processing

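Each of the 10 genes was tested under 16 alternatives. The number of genes higher in BI tumors was 2 under DESeq2 (Psmb8, adjusted p = 0.0475, and Psmb9, adjusted p = 0.0433) and ranged from 0 to 1 when each tumor was left out, with 1 (Psmb9) without vehicle replicate 1. No alternative gave a gene that was lower. Log2 fold changes ranged from 0.12 to 0.28 for Psmb9, 0.13 to 0.2 for Psmb8, 0.13 to 0.28 for Tap1, 0.12 to 0.18 for H2-K1, 0.1 to 0.21 for H2-D1, 0.02 to 0.1 for B2m, 0.03 to 0.11 for Nlrc5 and 0.02 to 0.08 for Tap2. Psmb10 (-0.01 to 0.13) was below 0 under 1 alternative and Tapbp (-0.05 to 0.07) under 6. When each tumor was left out, the difference in the log2 ratio ranged from 0.02 to 0.14 for Psmb8 to Psmb5, from -0.06 (without vehicle replicate 2) to 0.13 (without vehicle replicate 3) for Psmb9 to Psmb6 and from 0 to 0.12 for Psmb10 to Psmb7, and no p passed. The difference in the untested log2 ratio of Ciita to Nlrc5 ranged from 0.91 to 1.18, and that of Cd74 to B2m from 0.89 to 1.13. Counts in the lists stayed within 1.5 times for 463 combinations of list and alternative and moved further for 65. The labels give no shared replicate numbers between the groups. With 3 vehicle tumors the intervals of the 10 genes leave room for changes of up to 0.43 on the log2 scale, and low genes such as Ifng and H2-T3 rest on few counts.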

Other observations

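Of 5 genes of polycomb repressive complex 2, a histone methyltransferase complex known to silence class I genes in some tumors, 2 fell in BI tumors and 0 rose (median log2 fold change -0.18), beside 14.1% of all genes tested that fell. Suz12, a core subunit, fell from 174 ± 12.6 CPM (SD, n = 3) to 137 ± 5.07 CPM (SD, n = 6), by 0.35 on the log2 scale (adjusted p = 0.00112). The histone-binding Rbbp7 fell by 0.18 (adjusted p = 0.0194), and its call was lost without vehicle replicate 1 or 3. The catalytic subunit Ezh2 was at 67.6 ± 2.37 and 57.6 ± 6.84 CPM (-0.23, adjusted p = 0.0763).

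Among the factors that act at class I promoters, both NF-kB precursors, Nfkb2 (-0.23, adjusted p = 0.0199) and Nfkb1 (-0.19, adjusted p = 0.0251), fell in BI tumors. Relb was at -0.21 (adjusted p = 0.0639) and Rela at 0.09 (adjusted p = 0.28), and neither passed the test. The call of Nfkb2 was lost without vehicle replicate 1 or 2, and that of Nfkb1 when any of 5 of the 9 tumors was left out.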
